A study of Mus musculus with 16 samples.

Results

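GFP+ cells sorted from mouse intestinal tumours of 2 genotypes, AKVPSL and AKVPL, were compared across all genes by RNA sequencing. The libraries were chosen by the sort named in their titles. Of the 16 libraries of the series 8 hold GFP+ cells, 4 of each genotype, and the GFP- libraries entered no comparison given here. GFP is read here as reporting Lgr5, a receptor of crypt base stem cells, because the design text speaks of cells with and without Lgr5.

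Each genotype name is given in the labels without its letters being spelled out. Mouse tumour models published under such names combine changes in several cancer genes, Apc and Trp53 among them, with a Cre recombinase driven by the villin promoter of the gut epithelium and an Lgr5 reporter allele, and the letter S stands for Smad4. On that reading both groups share every change except the one in Smad4. The sources used here do not give strain, age, host, any treatment or gating other than by GFP. Nor is it given whether a genotype stands for 1 organoid line or clone, so genotype and line of origin cannot be told apart. The colon is named in all 8 titles, but the tissue given for the same 8 libraries is small intestine. The labels do not say that replicates came from separate animals. The p-values weigh the difference between genotypes against the spread of these libraries within a group, which may be technical. In RNA from sorted bulk cells, fewer cells of a type and less RNA per cell cannot be told apart.

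SMAD4 is the shared partner of the SMAD proteins that carry TGF-beta and BMP signals to the nucleus. In the intestine, BMP signals from outside the crypt base drive cells out of the stem cell state, and TGF-beta restrains the growth of epithelial cells. Lgr5+ cells normally give rise to absorptive cells and to the secretory lineages, namely goblet, Paneth, enteroendocrine and tuft cells.

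The comparison asked how RNA of GFP+ cells differs between the genotypes. Between them the 8 libraries parted widely. Tuft cell genes, interferon response genes, antigen presentation genes and the BMP targets Id1 and Id3 were lower in AKVPSL. Cdx2, the BMP target Id4, 11 of 17 tested goblet cell genes, several WNT feedback genes and 11 of 21 MAPK output genes were higher. In the goblet cell list 3 genes were lower. Of 17130 genes tested, 9748 (56.9%) changed at an adjusted p under 0.05 by edgeR's quasi-likelihood test with Benjamini-Hochberg adjustment. In AKVPSL 4850 (28.3%) were higher and 4898 (28.6%) lower. A change of at least 2-fold was found for 3929 genes (22.9%), 1349 of them (7.88%) upward in AKVPSL and 2580 (15.1%) downward. The groups did not overlap for 52.6% of genes, with all 4 AKVPSL libraries above all 4 AKVPL libraries for 26.5% and below them for 26.0%. With so many genes changed, a list in which about 28% of members rose and as many fell is no different from all genes, and the counts below are read against these shares. The lists were chosen with earlier results of these data known, so this reading is a description and no test. The median log2 difference over all tested genes was -0.01. Every difference below is AKVPSL minus AKVPL on the log2 scale, with its standard error (SE), and levels are counts per 1000000 (CPM) scaled by edgeR's TMM factors.

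Total counts were 27.7 ± 7.62 M (M, 1000000 counts; SD, n = 4) in AKVPL and 32.2 ± 6.98 M in AKVPSL, from 17.82 to 41.602 M. A principal component analysis of the 2000 genes that varied most put 93.2% of the variance on a first axis that separated the genotypes, and 3.4% on the second. The share of counts on mitochondrial genes was 4.78 ± 1.52% in AKVPL (SD, n = 4) and 2.44 ± 0.34% in AKVPSL, a difference of -2.34 percentage points that separated the groups fully (exact permutation test, two-sided p = 0.0286, the smallest that 4 against 4 can give). The part of that difference in any result below was not tested.

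Libraries labelled AKVPSL did not have less RNA of the gene that the letter S stands for. Smad4 (Gene ID 17128, chromosome 18) stood at 151, 154, 148 and 147 CPM in AKVPL replicates 1 to 4 and at 235, 221, 279 and 243 CPM in AKVPSL replicates 1 to 4. The groups did not overlap, and the difference was 0.71 ± 0.08 (edgeR adjusted p = 1.74e-05). The tested genes of chromosome 18 had a median difference of 0.50. Whole-gene counts do not show whether some exons are missing while the others are still transcribed. The values are therefore no check of the label, and the groups keep the names that the labels give them. Apc, the gatekeeper of WNT signalling on the same chromosome, stood at 184, 203, 170 and 143 CPM in AKVPL and at 283, 241, 386 and 296 CPM in AKVPSL, without overlap (0.79 ± 0.15, edgeR adjusted p = 0.000898). Trp53, the gene of the tumour suppressor p53, did not pass the threshold (-0.29 ± 0.13, edgeR adjusted p = 0.0655), with 31.8 to 40.4 CPM in AKVPL and 25.4 to 36.5 CPM in AKVPSL. It did pass without AKVPSL replicate 2 (-0.41) and with library totals in place of TMM scaling (-0.35).

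The gene of the sort did not separate the genotypes. Every library compared was sorted on GFP, read here as reporting Lgr5, so the sort itself selects on this gene. The Lgr5 gene (Gene ID 14160, at 115450314 to 115587780 on chromosome 10 of GRCm38) had 287, 292, 246 and 339 CPM in AKVPL and 283, 251, 277 and 255 CPM in AKVPSL. These ranges overlap, and the difference was -0.13 ± 0.10 (edgeR adjusted p = 0.284). Epithelial RNA was followed with 20 genes of epithelial identity, whose summed level ran from 13000 to 16200 CPM in AKVPL and from 13700 to 14300 CPM in AKVPSL. Of these 4 rose and 6 fell (median -0.13, and -0.08 without AKVPL replicate 3 or AKVPSL replicate 4); 3 fell without AKVPL replicate 2, AKVPL replicate 3 or AKVPSL replicate 4. Epcam, the epithelial adhesion molecule, had 1850 to 1940 CPM in AKVPL and 1780 to 2040 CPM in AKVPSL (0.03 ± 0.08, edgeR adjusted p = 0.77), and its sign turned with library totals (-0.03).

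**Figure D1:**
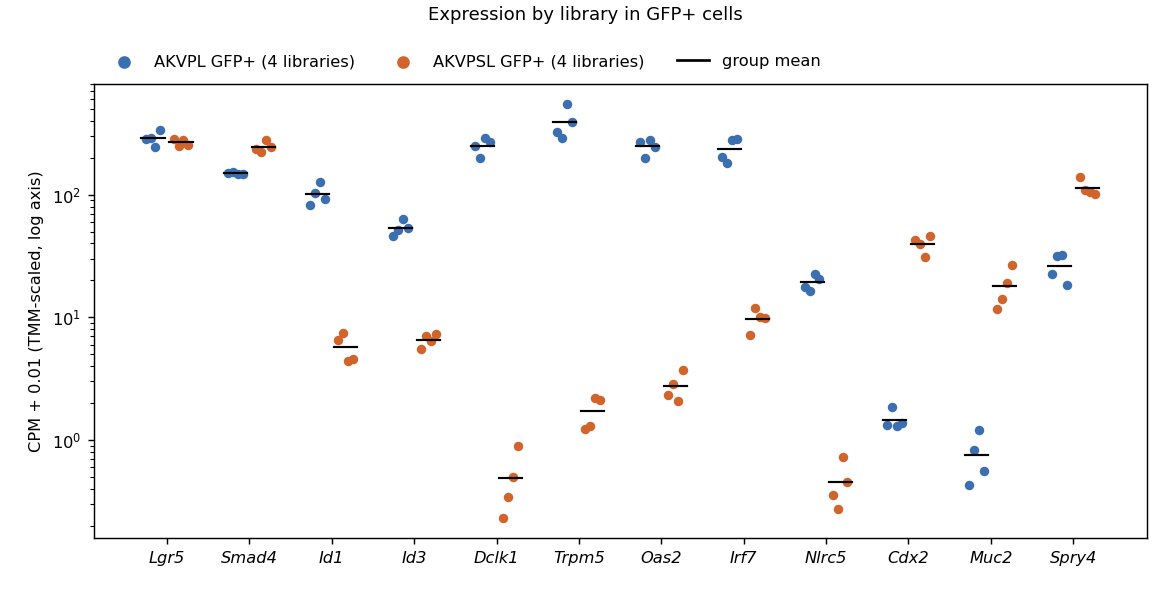
Level of 12 genes in each GFP+ library, in TMM-scaled CPM plus 0.01 on a log axis; each point is 1 library, blue for the 4 AKVPL and orange for the 4 AKVPSL libraries, and bars are group means. Lgr5 overlaps between the genotypes, Dclk1 lies between 198 and 289 CPM in AKVPL and between 0.223 and 0.884 CPM in AKVPSL, and Cdx2, Muc2 and Spry4 lie higher in AKVPSL without overlap.

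Genes that respond to BMP and TGF-beta did not move as one. Among 10 tested BMP targets of a list of 12, 4 fell and 1 rose (median -0.27, and -0.76 with the DESeq2 Wald test). Id1, Id2 and Id3, inhibitors of basic helix-loop-helix factors that BMP signals induce, all fell, and Id4 of the same family rose. Id1 (chromosome 2, 152736251 to 152737410) stood at 82.6, 103, 127 and 91.6 CPM in AKVPL and at 6.58, 7.38, 4.36 and 4.54 CPM in AKVPSL. No library of one group came near the other, and the difference was -4.13 ± 0.20 (edgeR adjusted p = 7.62e-08). Id3 went from 45.6, 51.7, 63.8 and 53.2 CPM to 5.54, 6.98, 6.46 and 7.31 CPM (-3.03 ± 0.13, edgeR adjusted p = 9.61e-09). Msx1, a homeobox gene that BMP induces, went from between 2.84 and 5.12 CPM to between 0.272 and 1.08 CPM (-2.77 ± 0.41). Id2 changed least of the family, from 82.9 to 97.1 CPM in AKVPL to 67.5 to 77.4 CPM in AKVPSL (-0.30 ± 0.08, edgeR adjusted p = 0.00532). Its call ended when libraries were scaled on the epithelial list, here called epithelial scaling (-0.27, edgeR adjusted p = 0.0573). Id4 went the other way, from 1.28, 2.40, 2.79 and 2.12 CPM to 30.6, 23.8, 23.3 and 20.9 CPM (3.53 ± 0.22, edgeR adjusted p = 1.85e-07). Without AKVPL replicate 2, 2 BMP targets rose.

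Of 20 tested TGF-beta targets 9 fell and 4 rose (median -0.52); the number that rose was 2 without AKVPL replicate 1, AKVPL replicate 4 or AKVPSL replicate 3. Pmepa1, a feedback inhibitor of TGF-beta signalling, stood at 253, 258, 278 and 224 CPM in AKVPL and at 69.9, 76.6, 66.6 and 69.4 CPM in AKVPSL. That is a difference of -1.84 ± 0.08 with no overlap (edgeR adjusted p = 1.39e-08). Cdkn1a, the cell cycle inhibitor p21 that TGF-beta and p53 both induce, varied within AKVPL, at 118, 237, 268 and 99.1 CPM, against 30.3, 44.7, 44.1 and 41.6 CPM in AKVPSL (-2.17 ± 0.34, edgeR adjusted p = 0.000605). Itgb6, an integrin subunit that activates latent TGF-beta, fell by 1.17 ± 0.09, and Snai1, a transcription factor of epithelial-mesenchymal transition, fell by 1.14 ± 0.29.

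The ligands and receptors of the 2 pathways divided. Of 28 pathway components 13 rose and 7 fell (median 0.22, and 0.10 without AKVPSL replicate 3); with limma on deposited RPKM 4 fell. Bmp4, a BMP ligand, rose from 7.49, 6.93, 6.48 and 7.95 CPM to 22.9, 23.4, 26.5 and 28.6 CPM (1.82 ± 0.12, edgeR adjusted p = 2.11e-07). Tgfb2, a TGF-beta ligand, fell from between 3.16 and 4.23 CPM to between 0.297 and 1.16 CPM (-2.43 ± 0.35). Inhba, the activin A subunit, fell from between 2.02 and 4.38 CPM to between 0.233 and 1.69 CPM (-1.97 ± 0.55, edgeR adjusted p = 0.0115). In AKVPSL the ligand Bmp4 was thus higher. In the same libraries the BMP targets Id1, Id2, Id3 and Msx1 were lower and Id4 was higher. Of the 10 tested BMP targets 5 did not pass the threshold.

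Tuft cells are rare chemosensory epithelial cells that signal through taste receptor components and release interleukin 25 and eicosanoids. All 23 tested genes of the tuft cell list of 24 fell in AKVPSL, against 28.6% of all genes, and the groups did not overlap for any of them. The list was chosen with earlier results of these data known, so its count describes these libraries and is no independent support. The median difference was -6.29, or -5.76 with genes at or near 0 counts set to the bound their counts allow. On the deposited RPKM values, where a pseudocount of 1 shrinks low genes, the median was -3.01. Dclk1 (chromosome 3, 55242303 to 55539068), a kinase that marks tuft cells, stood at 249, 198, 289 and 267 CPM in AKVPL and at 0.223, 0.332, 0.492 and 0.884 CPM in AKVPSL. Over the groups these were 27772 and 56 counts, and the difference was -9.10 ± 0.28 (edgeR adjusted p = 3.90e-09).

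Falls covered the master factor, the taste pathway and the effectors. Pou2f3, the transcription factor that specifies tuft cells, went from 51.4, 39.5, 73.5 and 55.6 CPM to 0.865, 1.40, 2.10 and 1.65 CPM (-5.22 ± 0.28, edgeR adjusted p = 1.99e-07). Trpm5, the cation channel of taste signalling, went from 326, 289, 545 and 393 CPM to 1.21, 1.30, 2.20 and 2.09 CPM (-7.86 ± 0.30, edgeR adjusted p = 5.23e-08). In both genes each AKVPL library was more than 18 times above each AKVPSL library. The G protein subunits Gnat3 and Gnb3 differed by -6.29 ± 0.57 and -9.0 ± 0.46, Gnb3 being outside the list. Rgs13, a regulator of G protein signalling, differed by -8.69 ± 0.46, and its 4 AKVPSL values were 0.148, 0.0665, 0.787 and 0.120 CPM. Sh2d6, an adaptor protein abundant in tuft cells, went from between 150 and 271 CPM to between 0.299 and 0.569 CPM (-8.87 ± 0.28). Chat, the enzyme of acetylcholine synthesis, had 667 counts over the AKVPL group and none over AKVPSL, at least 248-fold lower with a floor of 3 counts over the group. Il25, the cytokine, had 102 and 0 counts, at least 37.9-fold lower. Chat and Il25 passed the count filter through AKVPL alone, so a fall was the only direction open to them. Likewise, each gene given below with a fold bound or a counting interval passed through 1 group alone. Its direction was fixed by that filter, also where it enters the count of a list. The smaller falls among the genes named here were those of Ptgs1 and Alox5. Ptgs1, a cyclooxygenase, went from between 87.0 and 105 CPM to between 33.1 and 43.5 CPM (-1.32 ± 0.10), and Alox5, the first enzyme of leukotriene synthesis, from between 1.59 and 3.61 CPM to between 0.297 and 1.37 CPM (-1.86 ± 0.48, edgeR adjusted p = 0.00672).

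The interferon response was lower in AKVPSL throughout the list that was tested. Interferons induce genes through factors that bind an element of repeated GAAA cores, and the products degrade viral RNA, block translation and raise antigen presentation. The proximal promoters of several members of the list show this element, and the windows below are those with the most matches to the motif GAAANNGAA among genes described here. They come from the RefSeq promoter table (GRCm38.p6), run 5′ to 3′ on the strand of the gene and carry 12 bases on each side; capitals mark the matches on either strand, and where matches overlap they form 1 run.
Isg15, chr4:156200864-156200908, minus strand: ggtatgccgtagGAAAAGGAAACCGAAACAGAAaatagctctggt
Oas3, chr5:120777708-120777746, minus strand: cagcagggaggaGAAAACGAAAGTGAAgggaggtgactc
Oas1a, chr5:120907519-120907557, minus strand: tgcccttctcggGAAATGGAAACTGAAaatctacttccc
Bst2, chr8:71537576-71537614, minus strand: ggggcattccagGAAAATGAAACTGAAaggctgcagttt
Eif2ak2, chr17:78882528-78882566, minus strand: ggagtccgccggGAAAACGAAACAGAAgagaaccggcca
Ifit1, chr19:34640768-34640825, plus strand: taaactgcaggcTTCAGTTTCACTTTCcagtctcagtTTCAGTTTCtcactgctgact
The first match began 78 bases before the annotated start in Isg15, 75 in Oas3, 20 in Oas1a, 130 in Bst2 and 109 in Ifit1, and 18 bases after it in Eif2ak2. Oas1g, a near copy of Oas1a, carries the same letters in its window. Of the 39 list members 27 have a promoter in the table, and 15 of these (55.6%) hold the motif within 250 bases before to 50 after the start, against 9.76% of all 27025 genes in it and 8.55% of the tested ones. With the motif 1 base longer the share was 51.9% against 3.99%. The 15 members with the motif had a median difference of -3.47 and the 12 without it -2.77, with overlapping ranges of -5.14 to -1.37 and -4.62 to -1.50. A match is a description of these letters and not a shown binding site.

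All 39 interferon response genes fell, with a median of -3.44 (-2.38 on the deposited RPKM values), against 28.6% of all genes, and the groups overlapped for none. This list too was chosen with earlier results of these data known, so its count is no independent support. Oas2 (chromosome 5, 120730333 to 120749886), an oligoadenylate synthetase that activates the antiviral ribonuclease RNase L, stood at 269, 199, 279 and 245 CPM in AKVPL and at 2.32, 2.86, 2.07 and 3.74 CPM in AKVPSL. Its difference of -6.52 ± 0.19 was the largest of the list (edgeR adjusted p = 2.68e-09). Its neighbours moved with it: Oas3 went from 45.3, 35.4, 45.5 and 46.7 CPM to 1.56, 1.76, 2.07 and 1.73 CPM (-4.60 ± 0.14). Oas1a and Oas1g fell by 4.09 ± 0.16 and 4.62 ± 0.17. Only uniquely aligned reads were counted, so reads that match both of these near-identical copies may be missing. The separate values of Oas1a and Oas1g are uncertain. These genes lie on chromosome 5, whose tested genes had a median of 0.52.

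Factors of the pathway and its effectors fell together. Irf7, the amplifier of type I interferon, went from 203, 180, 280 and 286 CPM to 7.22, 11.8, 9.97 and 9.84 CPM (-4.62 ± 0.21, edgeR adjusted p = 6.36e-08). Isg15, a ubiquitin-like modifier, went from 57.4, 51.8, 56.7 and 64.4 CPM to 2.99, 4.89, 8.20 and 4.42 CPM (-3.50 ± 0.26). Bst2, which tethers virus particles to the cell, differed by -3.47 ± 0.15 and Ifit1, which binds viral RNA, by -3.32 ± 0.26. Ifi44 and Rtp4, also interferon-induced, differed by -5.14 ± 0.30 and -4.80 ± 0.20. The smallest fall of the list was that of Eif2ak2, the kinase PKR that halts translation, from 81.2, 73.6, 63.9 and 76.1 CPM to 27.7, 25.1, 30.3 and 30.7 CPM (-1.37 ± 0.10). Every one of these 7 genes had its lowest AKVPL library above its highest AKVPSL library.

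Antigen presentation by MHC class I fell as well. Of 14 genes 12 fell and none rose (median -1.70). Nlrc5, the transactivator of class I genes, went from 17.6, 16.3, 22.6 and 20.4 CPM to 0.346, 0.266, 0.721 and 0.442 CPM (-5.44 ± 0.25, edgeR adjusted p = 1.64e-08). Tap1, which carries peptides into the endoplasmic reticulum, went from 45.1, 40.5, 50.4 and 50.6 CPM to 1.78, 2.43, 2.69 and 3.37 CPM (-4.20 ± 0.18). Psmb9, a subunit of the immunoproteasome, fell by 3.25 ± 0.29. The abundant structural genes fell less. B2m, the light chain, went from between 505 and 706 CPM to between 172 and 218 CPM (-1.65 ± 0.12), and H2-K1, a heavy chain, from between 325 and 465 CPM to between 176 and 207 CPM (-1.0 ± 0.11). MHC class II genes fell in 6 of 7 (median -2.89), with Cd74, the invariant chain, at 108, 174, 292 and 131 CPM against 11.7, 17.8, 28.8 and 37.6 CPM (-2.89 ± 0.44, edgeR adjusted p = 0.000535).

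Leukocytes express interferon response, class II and some tuft cell genes, so their markers are given beside these lists. Of 18 tested leukocyte genes of a list of 25, 10 fell and none rose (median -1.49; 5 fell without AKVPSL replicate 2). The T and B cell genes Cd3e, Cd3g, Cd8a, Cd79a and Ms4a1 and the killer cell gene Nkg7 were among those too low to be tested. Summed levels were 359, 451, 1060 and 509 CPM in AKVPL and 58.2, 125, 213 and 319 CPM in AKVPSL, without overlap. Ptprc, the pan-leukocyte CD45, went from 8.41, 14.5, 22.6 and 13.8 CPM to 0.816, 2.49, 5.25 and 6.15 CPM (-2.03 ± 0.56, edgeR adjusted p = 0.0134). Within AKVPL the highest leukocyte sum was 2.95 times the lowest, while the highest interferon sum was 1.18 times the lowest (3720, 3290, 3780 and 3870 CPM) and the highest tuft cell sum 1.58 times (2160, 1850, 2920 and 2550 CPM). Within AKVPSL the leukocyte sum spanned 5.48 times, against 1.32 times for the interferon sum (478, 524, 631 and 526 CPM) and 1.21 times for the tuft cell sum (210, 218, 255 and 229 CPM). Between the genotypes the group means differed 3.33-fold for the leukocyte sum, 6.79-fold for the interferon sum and 10.4-fold for the tuft cell sum. The class II sum ranged 2.72 times within AKVPL and 2.97 times within AKVPSL. The part of leukocyte RNA in the falls of these lists was not tested.

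**Figure D2:**
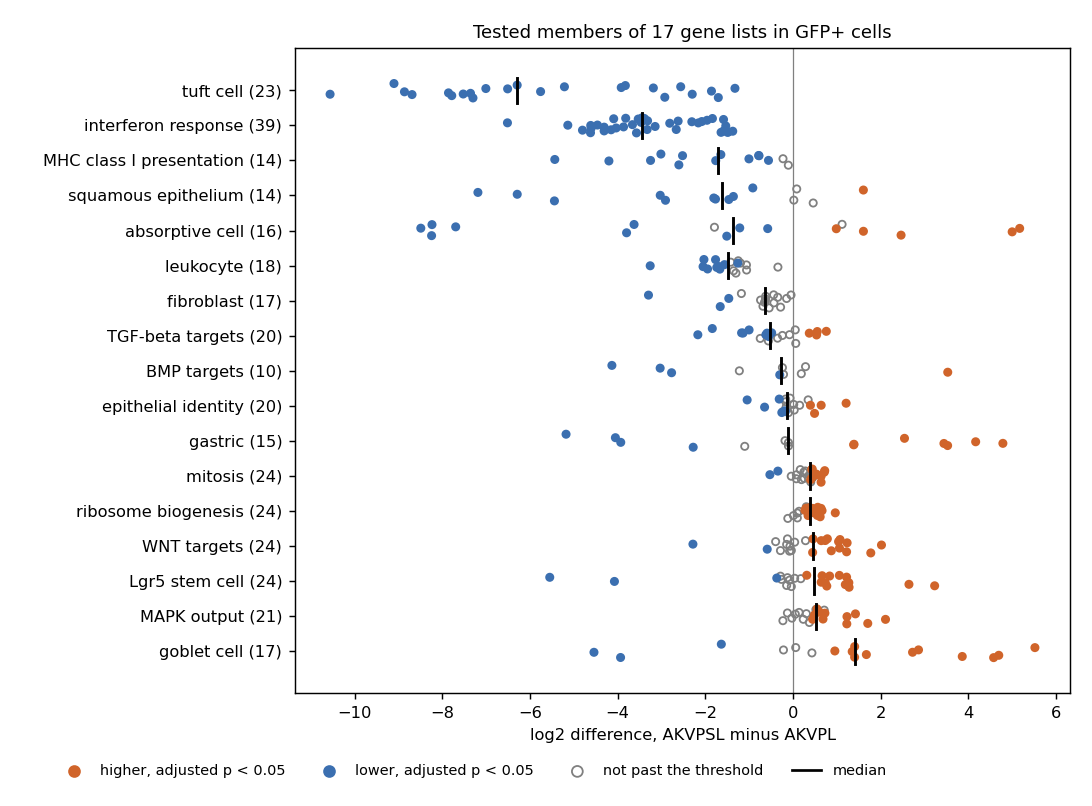
Log2 difference, AKVPSL minus AKVPL, of each tested member of 17 gene lists; each point is 1 gene, filled orange or blue where it rose or fell by edgeR at an adjusted p under 0.05, open otherwise, with the list median as a bar and the number tested in brackets. All 23 tuft cell and all 39 interferon genes lie below 0, while MAPK output genes reach from -0.23 to 2.11 with none that fell.

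Among the other secretory lineages, goblet cell genes mostly moved the other way from tuft cell genes, against 28.3% of all genes that rose. Of 17 tested goblet cell genes 11 rose and 3 fell (median 1.41). Muc2, the gel-forming mucin of the intestine, went from 0.418, 0.821, 1.2 and 0.545 CPM to 11.6, 14.1, 19.1 and 26.7 CPM (4.58 ± 0.37, edgeR adjusted p = 2.54e-06). Tff3, the trefoil peptide secreted with it, went from between 0.390 and 0.881 CPM to between 11.7 and 22.5 CPM (4.69 ± 0.29). Atoh1, the factor that commits cells to the secretory fate, had 3 counts over AKVPL and 172 over AKVPSL, 51.4-fold higher with a 95% counting interval of 17.3 to 252. Fcgbp, another goblet cell product, went against the list, from 51.1, 56.0, 51.1 and 64 CPM to 3.39, 4.42, 3.61 and 3.09 CPM (-3.93 ± 0.13, edgeR adjusted p = 2.98e-09). Reg4, a lectin of deep crypt secretory cells, rose from 4.09, 5.08, 5.35 and 2.78 CPM to 82.2, 87.9, 78.5 and 107 CPM (4.34 ± 0.18, edgeR adjusted p = 1.58e-08).

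Reg4 counts here with the Paneth cell list, of whose 14 genes only 8 could be tested, the defensins being too low. In it 3 rose and 1 fell, a changed share below the 56.9% of all tested genes. Ang4, an antimicrobial ribonuclease, had 9 counts over AKVPL and 787 over AKVPSL (6.25 ± 0.68). Lyz1, the Paneth cell lysozyme, overlapped between the genotypes at 39.0, 51.4, 41.4 and 93.9 CPM and 41.0, 28.5, 49.7 and 59.8 CPM (-0.33 ± 0.32, edgeR adjusted p = 0.41), and its sign turned without AKVPL replicate 4 (0.05). Of 22 enteroendocrine genes 8 could be tested, of which 2 rose and 3 fell, with 1 that fell by limma on deposited RPKM and 5 without the low-count filter. The changed share was 62.5%, against 56.9% of all tested genes. With so few genes tested, the Paneth and enteroendocrine counts cannot be told apart from the shares of all genes. Isl1, a transcription factor of hormone-producing cells, had 1 count over AKVPL and 313 over AKVPSL, 281-fold higher (95% counting interval 50 to 11100). Tph1, which makes serotonin in enterochromaffin cells and is also found in mast cells, had 215 and 2 counts, 120-fold lower in AKVPSL (32.8 to 996), and Sct, the gene of secretin, differed by -6.12 ± 0.51.

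Absorptive cell genes split by member. Of 16 tested of a list of 24, 9 fell and 5 rose (median -1.36), and under a filter of at least 1 CPM in every library of a group 5 fell and 3 rose. With limma on deposited RPKM the median was -0.11. Apob, the scaffold of chylomicrons, was at 171, 183, 189 and 190 CPM in AKVPL and at 0.396, 0.199, 0.820 and 1.12 CPM in AKVPSL (-8.24 ± 0.28, edgeR adjusted p = 1.27e-08). S100g, a calcium-binding protein of the enterocyte, went from 30.1, 22.6, 39.3 and 50.9 CPM to between 0.0402 and 0.148 CPM (-8.49 ± 0.38). Fabp1, a fatty acid carrier, had 131 counts over AKVPL and none over AKVPSL, at least 48.7-fold lower. It passed the count filter through AKVPL alone, so only a fall was open to it. Against these, Car2, a carbonic anhydrase abundant in colonocytes, rose from 14.2, 14.1, 16.1 and 18.5 CPM to 554, 573, 444 and 435 CPM (5.00 ± 0.14, edgeR adjusted p = 1.21e-09).

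Cdx2 (chromosome 5, 147300900 to 147307249), the homeobox factor that sets intestinal identity, was low in AKVPL. It stood at 1.31, 1.85, 1.28 and 1.36 CPM there and at 42.5, 39.5, 31.1 and 45.6 CPM in AKVPSL, a difference of 4.76 ± 0.17 (edgeR adjusted p = 3.79e-09). No other intestinal identity factor came close. Of the 17 tested, 5 rose and 8 fell (median -0.38), with Hnf4g at 1.09 ± 0.17 and Hnf4a, its more abundant paralogue, at -0.51 ± 0.11 (183 to 267 CPM in AKVPL, 147 to 170 CPM in AKVPSL).

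Genes of the stomach and of squamous epithelium differed too. Among 15 gastric genes 7 rose and 4 fell (median -0.10, and 0.62 under the stricter filter). Ctse, cathepsin E of the gastric surface, went from 714, 638, 558 and 624 CPM to 6.55, 8.08, 24 and 32.1 CPM (-5.18 ± 0.53, edgeR adjusted p = 4.89e-05). Gkn1, gastrokine 1, went from between 49.7 and 70.5 CPM to between 2.50 and 4.78 CPM (-4.05 ± 0.20). Lipf, gastric lipase, which is not in the list, had 2607 counts over AKVPL and 1 over AKVPSL, 2910-fold lower (521 to 115000). In the opposite direction went Tff1, a gastric trefoil peptide, at 0.621 to 1.69 CPM against 12.8 to 31.2 CPM (4.17 ± 0.38), Sox2, the foregut factor, at 3.44 ± 0.33, and Cblif, intrinsic factor, at 0.501, 0.517, 0.0776 and 0.490 CPM against 3.36, 4.79, 15 and 22 CPM (4.79 ± 0.77). Higher Cdx2 in AKVPSL thus came with lower Ctse and Gkn1 and with higher Sox2 and Tff1. Of 14 tested squamous genes 10 fell and 1 rose (median -1.62), and with limma on deposited RPKM 6 fell (median -0.65). Krt14, the basal keratin, went from 150, 151, 162 and 116 CPM to 0.544, 1.40, 1.11 and 1.00 CPM (-7.19 ± 0.22, edgeR adjusted p = 3.32e-09). Krt17, a keratin of stressed epidermis, fell by 5.44 ± 0.25, and Trp63, the master factor of stratified epithelium, had 245 counts over AKVPL and 3 over AKVPSL, 91-fold lower (30.8 to 444).

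Fetal and regenerative genes, which mark the repairing gut, did not move together: 7 rose and 6 fell of 17 (median 0.08, -0.06 without AKVPL replicate 4 and 0.21 without AKVPL replicate 3). Cldn6, a claudin of embryonic epithelium, went from 0.724, 1.31, 1.47 and 1.14 CPM to 117, 127, 120 and 125 CPM, a difference of 6.73 ± 0.16 (edgeR adjusted p = 9.27e-10). Ly6a, the surface protein Sca-1, rose by 0.49 ± 0.10, and Anxa8, an annexin, went from between 34.0 and 42.3 CPM to between 0.898 and 1.54 CPM (-5.13 ± 0.17). In the oncofetal list 5 of 11 tested members rose and 4 fell. Afp, the fetal serum protein, went from 2.56, 4.38, 3.45 and 3.92 CPM to 62.3, 68.3, 54.9 and 61.1 CPM (4.11 ± 0.16). Igf2, the fetal growth factor, went from 17.3, 14.0, 14.7 and 17.1 CPM to between 0.0328 and 0.161 CPM (-7.19 ± 0.26), and Igf2bp1, an RNA-binding protein, fell by 4.87 ± 0.34. H19, the non-coding RNA of the same imprinted locus as Igf2, rose by 1.95 ± 0.27, from between 15 and 25.6 CPM to between 49.8 and 112 CPM.

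Hox genes, which set position along the gut, differed by cluster. Of the 21 tested of 39, 8 rose and 9 fell. In the Hoxa cluster on chromosome 6, 8 of 11 tested genes fell, and in the Hoxb cluster on chromosome 11, 7 of 9 rose. Hoxa7 went from 41.8, 29.4, 30.5 and 43.1 CPM to 0.198, 0.399, 0.328 and 0.281 CPM (-6.92 ± 0.23, edgeR adjusted p = 2.68e-09), and Hoxa9 from 65.8, 45.0, 36.2 and 67.4 CPM to 1.21, 0.532, 2.16 and 3.09 CPM (-4.97 ± 0.45). Hoxb9 went from 1.75, 1.73, 1.32 and 2.23 CPM to 24.9, 25, 19 and 29.2 CPM (3.81 ± 0.19, edgeR adjusted p = 2.38e-08). Its neighbours Hoxb7 and Hoxb6 rose by 3.53 ± 0.29 and 3.12 ± 0.15. Hoxa13 and Hoxb13 went against the other genes of their clusters that passed the threshold. Hoxa13, a gene of the most posterior gut, rose by 2.64 ± 0.68 (edgeR adjusted p = 0.0073), with 39 counts over AKVPL and 300 over AKVPSL. Hoxb13 had 171 counts over AKVPL and none over AKVPSL, at least 63.5-fold lower.

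**Figure D3:**
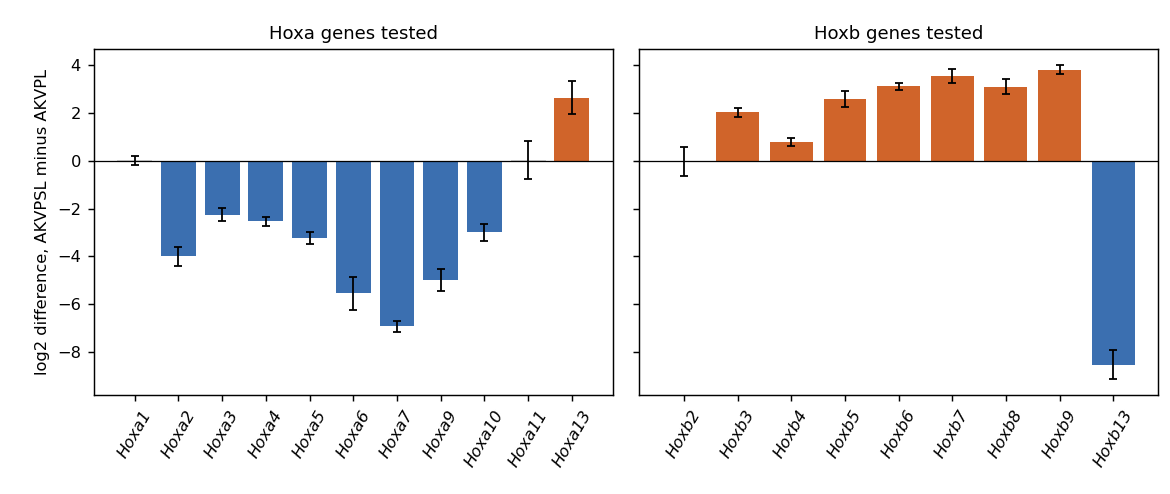
Log2 difference, AKVPSL minus AKVPL, of the tested Hoxa genes (left) and Hoxb genes (right) in cluster order. Bars are edgeR estimates with their standard errors. They are orange above and blue below 0 at an adjusted p under 0.05, and light grey otherwise. Hoxa2 to Hoxa10 lie below 0 and Hoxb3 to Hoxb9 above it, while Hoxa13 and Hoxb13 lie on the opposite side from their clusters.

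WNT signalling keeps Lgr5+ cells in the stem cell state and induces its own inhibitors. Of 24 WNT targets 13 rose and 2 fell (median 0.45), and of 24 tested Lgr5 stem cell genes 13 rose and 3 fell (median 0.48, and 0.32 with the DESeq2 Wald test); the lists share members. Nkd1, an intracellular inhibitor of the pathway, went from 472, 477, 467 and 598 CPM to 2210, 2050, 2110 and 1800 CPM (2.02 ± 0.11, edgeR adjusted p = 3.98e-08). Notum, a secreted enzyme that inactivates WNT ligands, went from 332, 292, 327 and 385 CPM to 691, 701, 785 and 633 CPM (1.07 ± 0.10). Apcdd1, a membrane inhibitor, rose by 1.77 ± 0.21 and Myc, a transcription factor gene downstream of WNT that drives growth, by 1.06 ± 0.11. Axin2, the feedback gene most used as a readout, overlapped at 369, 342, 270 and 416 CPM and 314, 330, 432 and 360 CPM (0.04 ± 0.14, edgeR adjusted p = 0.827). Its sign turned in 3 alternatives, with library totals (-0.02), without AKVPL replicate 3 (-0.04) and without AKVPSL replicate 3 (-0.06). Sp5, a WNT-induced transcription factor, fell from between 4.65 and 7.90 CPM to between 0.816 and 1.43 CPM (-2.28 ± 0.25). The feedback genes therefore did not shift by a common amount. Among stem cell genes, Smoc2, a matrix protein of crypt base cells, rose by 0.84 ± 0.09. Msi1, an RNA-binding protein of stem cells, fell from 23.3, 18.6, 28.5 and 24.2 CPM to 1.43, 1.16, 1.41 and 1.61 CPM (-4.07 ± 0.17), and Nrn1, neuritin, fell by 5.55 ± 0.54.

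MAPK output genes, the feedback inhibitors and factors switched on by ERK signalling, rose in 11 of 21 and fell in none (median 0.52), against 28.3% of all genes that rose. Spry4, a Sprouty inhibitor of receptor signalling, stood at 22.7, 31.9, 32.4 and 18.4 CPM in AKVPL and at 139, 109, 106 and 102 CPM in AKVPSL. The groups did not overlap (2.11 ± 0.18, edgeR adjusted p = 5.31e-06). Spry4 lies on chromosome 18, whose tested genes had a median of 0.50. Etv5, an ETS factor, went from 93.9, 83.3, 74.5 and 99.7 CPM to 316, 265, 305 and 259 CPM (1.71 ± 0.11), and Spry1 rose by 1.43 ± 0.07 from a level between 62.3 and 65.9 CPM. Dusp6, the ERK phosphatase, changed least of those named, from 322, 378, 403 and 247 CPM to 504, 464, 490 and 437 CPM (0.49 ± 0.13, edgeR adjusted p = 0.00845).

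Growth and metabolism genes shifted by small amounts. Of all tested genes 28.3% rose, 28.6% fell and 56.9% changed in either direction by edgeR. The changed share of the mitosis, DNA replication and cholesterol lists was below that 56.9%. The changed share of the ribosome biogenesis, hypoxia and glycolysis, and NRF2 lists was above it. In the ribosome biogenesis list 18 of 24 genes rose with none that fell (median 0.40), among them Nolc1, a nucleolar phosphoprotein (0.97 ± 0.12), and Nop14, a small subunit factor (0.66 ± 0.08). Of 24 mitosis genes 10 rose and 2 fell (median 0.39), with Kif11, a spindle kinesin, at 0.72 ± 0.13 and Ube2c, which conjugates ubiquitin in mitosis, at -0.53 ± 0.13. In 6 of the alternative fits 1 mitosis gene fell. DNA replication genes rose in 9 of 24 (median 0.22), with Mcm7, of the replicative helicase, at 0.66 ± 0.12; 2 fell without AKVPSL replicate 2 and none with all libraries. Hypoxia and glycolysis genes rose in 13 of 24 (median 0.47). Adm, adrenomedullin, rose by 1.15 ± 0.22 while Car9, the carbonic anhydrase most used as a hypoxia marker, was the member that fell, from 141, 154, 134 and 158 CPM to 48.9, 51.1, 69.4 and 59.2 CPM (-1.36 ± 0.11, edgeR adjusted p = 1.45e-06). In the cholesterol list 9 of 21 rose and 1 fell (median 0.25, 0.15 without AKVPSL replicate 1, where 2 fell, and 0.39 without AKVPSL replicate 4). NRF2 antioxidant genes rose in 8 of 17 and fell in 4 (median 0.16, and 0.31 without AKVPL replicate 3), with Gpx2, a glutathione peroxidase of the gut, at 1.51 ± 0.12.

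The genes with the largest rises and falls were mostly near 0 in one genotype. Those given here with a bound or a counting interval passed the count filter through the other genotype alone, so only 1 direction was open to them. Cxcl15, a chemokine of mucosal epithelium, rose from between 0.334 and 0.456 CPM to 78.2, 79.6, 52.4 and 65.3 CPM (7.45 ± 0.20, edgeR adjusted p = 9.27e-10). Mug1, a protease inhibitor of the liver and plasma, was the most abundant of these, rising from 8.32, 10.2, 10.1 and 8.61 CPM to 768, 662, 1240 and 922 CPM (6.59 ± 0.22). Rhox5, a homeobox gene of the reproductive tract on chromosome X, had 10 counts over AKVPL and 20.4, 7.71, 27.1 and 31.9 CPM in AKVPSL (7.89 ± 0.70). Cpa6, a carboxypeptidase, had no count in AKVPL and 633 in AKVPSL, at least 189-fold higher, and Car8, a protein related to carbonic anhydrases, had 2 and 488, 219-fold higher (95% counting interval 60.3 to 1810). Among the falls, Zp2, an egg coat glycoprotein, and Hmx3, a homeobox gene, had 833 and 777 counts in AKVPL and none in AKVPSL, at least 309-fold and 289-fold lower. Dmbt1, a mucosal scavenger glycoprotein, had 2193 counts against 1, 2440-fold lower (438 to 96600).

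Differences had a chromosomal pattern. The tested genes of chromosome 5 had a median of 0.52, with 63.0% of 1013 genes higher in AKVPSL, and those of chromosome 18 a median of 0.50, with 59.6% of 443 higher, against 28.3% of all genes. Chromosomes 15, 12, 6, 19 and 8 followed with medians of 0.39, 0.33, 0.29, 0.25 and 0.24. The lowest autosomal medians were those of chromosomes 7 (-0.26), 2 (-0.24) and 9 (-0.20). Leaving out 1 library at a time kept the medians between 0.51 and 0.55 for chromosome 5 and between 0.48 and 0.53 for chromosome 18. Among genes of mean log2 CPM 5 or more the median was 0.67 on chromosome 18, 0.63 on chromosome 5, -0.11 on chromosome 7 and -0.12 on chromosome 2. These are descriptions without a test. Smad4 (0.71) and Apc (0.79) lie between the quartiles of chromosome 18, 0.01 and 0.84, and Spry4 (2.11) lies outside them. Cdx2 (4.76) and Oas2 (-6.52) lie outside those of chromosome 5, 0.08 and 0.84.

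**Figure D4:**
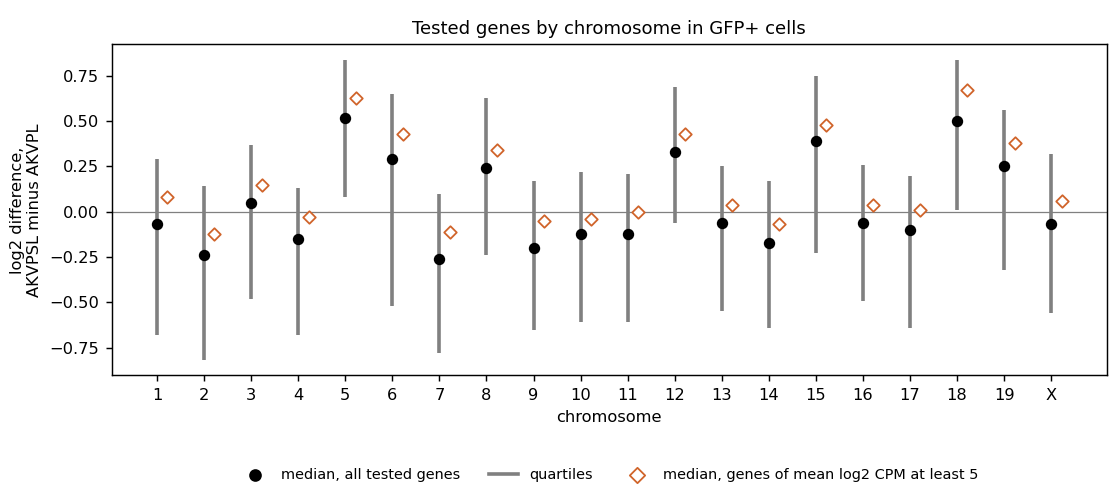
Median log2 difference, AKVPSL minus AKVPL, of the tested genes of chromosomes 1 to 19 and X (black points) with quartiles (grey lines), and the median of genes whose mean log2 CPM was 5 or more (open diamonds). Among the chromosomes drawn, 5 and 18 have the highest medians over all tested genes at 0.52 and 0.50, and 7 the lowest at -0.26.

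Chromosome 18 also holds the clustered protocadherins, cell surface proteins best known from neurons. All 22 tested gamma genes rose by nearly the same amount, from 2.64 to 2.76, while of 20 tested beta genes 15 fell and none rose (median -1.02). Pcdhga5 went from 14.3, 14.2, 16.9 and 18.2 CPM to 99.4, 101, 118 and 106 CPM (2.75 ± 0.10, edgeR adjusted p = 3.79e-09). Gamma genes share their last exons, so their reads cannot be assigned to 1 gene and the 22 values are closer to 1 measurement than to 22. Pcdhb9, a single-exon beta gene, went from 79.9, 62.2, 59.1 and 71.3 CPM to 3.31, 3.29, 5.57 and 5.06 CPM (-3.99 ± 0.19, edgeR adjusted p = 3.75e-08).

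Markers of stromal cells differed in both directions, as did all tested genes, of which 28.3% rose and 28.6% fell. The changed share was 17.6% in the fibroblast list, 37.5% in smooth muscle, 44.4% in mast cell and 57.1% in endothelial genes. Over all tested genes it was 56.9%, so the endothelial split is no different from all genes. Fibroblast genes summed to 583, 735, 1200 and 1090 CPM in AKVPL and to 208, 525, 453 and 1070 CPM in AKVPSL, which overlap, and 3 of 17 fell (median -0.63, -0.34 without AKVPSL replicate 1). Without AKVPSL replicate 4, 11 fell (median -1.11). Col1a1, a collagen of fibroblasts, did not pass the threshold (-0.63 ± 0.48, edgeR adjusted p = 0.294), except without AKVPSL replicate 4 (-1.16). Pdgfra, a fibroblast receptor, fell from 26.4, 22.2, 29.6 and 36.2 CPM to 1.21, 2.66, 3.51 and 4.46 CPM (-3.30 ± 0.34). Single genes stood apart from their lists. Of 8 tested smooth muscle genes 3 fell, and Myl9, a myosin light chain, went from 123, 132, 162 and 154 CPM to 0.816, 1.2, 1.05 and 1.89 CPM (-6.90 ± 0.21), most of the summed level of 197 to 259 CPM in AKVPL. Of 9 tested mast cell genes 4 fell. Kit, the stem cell factor receptor, went from 59.4, 64.9, 72.7 and 66.0 CPM to 2.77, 3.13, 3.44 and 3.33 CPM (-4.38 ± 0.11), within sums of 74.3 to 107 CPM and 12.2 to 21.8 CPM. Mcpt1, a mast cell protease, had 328 and 7 counts (-5.54 ± 0.78, edgeR adjusted p = 0.000148). Endothelial genes summed higher in AKVPSL, at 258 to 335 CPM against 167 to 214 CPM, with 4 that rose and 4 that fell of 14 (median -0.82, and -0.46 with limma on deposited RPKM). Cdh5, the endothelial cadherin, fell from 32.7, 25.9, 34.8 and 32.2 CPM to 4.94, 8.05, 2.59 and 4.46 CPM (-2.65 ± 0.28, edgeR adjusted p = 2.72e-05). Vwf, von Willebrand factor, rose from 18.3, 20.8, 22.4 and 19.2 CPM to 69.2, 83.7, 115 and 115 CPM (2.25 ± 0.16, edgeR adjusted p = 1.03e-06). The mesenchymal programme list fell in 6 of 10 (median -1.15, and -0.71 with limma on deposited RPKM), while Twist1, one of its transcription factors, rose by 3.74 ± 0.24. The part of stromal RNA in these differences was not tested.

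**Figure D5:**
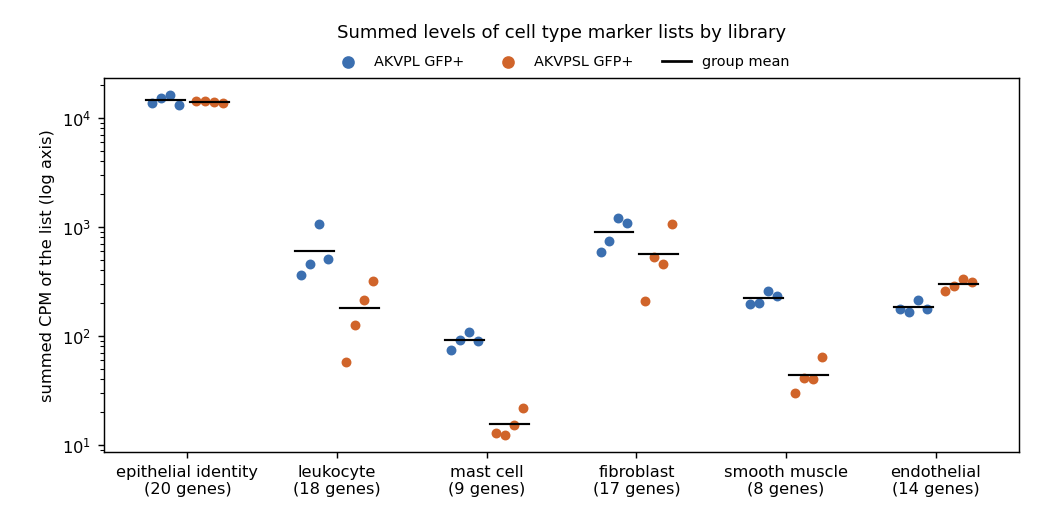
Summed CPM of 6 cell type marker lists in each GFP+ library on a log axis; points are libraries, blue for AKVPL and orange for AKVPSL, and bars are group means, with the number of tested genes in brackets. Epithelial and fibroblast sums overlap between the genotypes, leukocyte, mast cell and smooth muscle sums lie lower in all 4 AKVPSL libraries, and endothelial sums lie higher.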

How the data were processed

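RNA was extracted with a column kit after flow sorting, per the labels' protocols. Alignment used GSNAP on GRCm38, per the submitters' processing notes; the sources used here give no versions, strand setting or gene lengths. The deposited values are a count of uniquely aligned reads per gene and, per the file headers, an RPKM value to which the authors applied a size factor. A RefSeq table (GRCm38.p6) matched 31049 of 36528 Gene IDs (85%), and unmatched IDs held 1.436% to 1.622% of counts. Within a group, chi-square over degrees of freedom between replicate counts was 10.32 to 46.81, above sampling noise, so each library was counted once; this does not show separate animals.

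The edgeR package (4.0.16, R 4.3.3) was run on the counts of the 8 GFP+ libraries: filterByExpr (minimum count 10), TMM scaling, robust quasi-likelihood F tests (6 residual degrees of freedom, two-sided, Benjamini-Hochberg over 17130 genes, threshold 0.05). The test was run on simulated data with 200 changed genes among 16860. It recovered 71 of 100 2-fold and 94 of 100 4-fold changes, with 10 false calls. Far fewer genes changed there than the 56.9% called here, so the simulation does not show error control in that setting. The SE is the absolute log2 difference over the root of F and is approximate near 0 counts. For genes with 3 or fewer counts in a group, folds are bounds (floor 3 counts) or carry a 95% exact interval, for counting error only. Such genes passed the count filter through the other group alone, so the direction of their difference was fixed in advance. Alternatives included DESeq2 1.42.0, other scalings and filters, all 16 libraries, a replicate block, limma 3.58.1 on log2 of deposited RPKM plus 1 and each library left out.

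The 44 gene lists, their members and the markers were chosen with earlier results of these data known. Named genes were Lgr5, Apc, Trp53, Smad4, Dclk1, Oas2, Spry4 and Cdx2, the 15 largest differences each way without overlap and of mean log2 CPM 1 or more, and up to 4 changed members per list, plus the 3 most abundant for other cell types. A few of these genes are not reported here. The printed subset, and other genes named, were picked after their values were seen.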

Additional observations from a re-analysis of the deposited data

Results flagged for a closer look

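Over the 125 genes printed or considered for printing, the library totals and the mitochondrial shares, 254 groups of 4 libraries were examined, of which 15 held a library whose gap to its nearest neighbour took up more of the group's range than Dixon's 95% critical value allows; chance gives about 1 in 20. In AKVPL replicate 2, Oas3 (35.4 CPM) and Oas1a (33.5 CPM) were low and Cdx2 (1.85 CPM) was high. In AKVPL replicate 4, Nkd1 (598 CPM) and Apcdd1 (35 CPM) were high and Anxa8 (34.0 CPM) was low. Cblif was low in AKVPL replicate 3 (0.0776 CPM), and Isl1 had its only AKVPL count in replicate 1 (0.0278 CPM). In AKVPSL replicate 3, Rgs13 (0.787 CPM), Sox2 (5.74 CPM) and Ifit1 (6.85 CPM) were high and Dmbt1 had its only count of the group (0.0328 CPM). In AKVPSL replicate 4, Hnf4a (147 CPM) was low and Lipf had its only count of the group (0.0402 CPM). Trp63 was detected in AKVPSL replicate 2 alone (0.0997 CPM). In none of these genes did leaving out the library in question change the call of the difference between genotypes.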

How the results depend on the processing

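The number of changed genes (9748) ranged from 8586 with limma on deposited RPKM to 10619 with the DESeq2 Wald test, and from 9046 to 9756 with 1 library left out. Upward calls made up 49.8% of all calls, and least with library totals (44.6%). The number changed at least 2-fold was 3929, and 1778 with limma on deposited RPKM, whose pseudocount shrinks low genes. Over 125 genes and their alternatives, 2231 of 2242 values kept their direction and side of the threshold. The 5 that reversed were those of genes short of the threshold: Epcam with library totals (-0.03), Lyz1 without AKVPL replicate 4 (0.05), and Axin2 with library totals (-0.02), without AKVPL replicate 3 (-0.04) and without AKVPSL replicate 3 (-0.06); the cause was not tested. Over the fits without 1 library Lyz1 ran from -0.49 to 0.05 and Axin2 from -0.06 to 0.15. The mitochondrial difference ran from -2.71 to -1.60 points with 1 library left out, with an exact permutation p of 0.0286 without an AKVPL library and 0.0571 without an AKVPSL library. With the replicate number as a block 9812 genes changed, of which 9387 are shared in direction with the fit without the block; Trp53 (-0.30) and Col1a1 (-0.82) then passed, and leukocyte and fibroblast genes fell in 16 and 11 cases. Libraries of the same number in the 2 genotypes correlated at 0.329, 0.015, 0.095 and 0.204 in their deviations from the group means, and AKVPL replicates 2 and 3 and AKVPSL replicates 2, 3 and 4 correlated better with another number (AKVPL 3 with AKVPSL 4 at 0.247), so the numbers are not taken to pair the libraries.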

Other observations

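Other gene families were measured in the same libraries, and their counts are read against the shares of all tested genes. Of 13 tested claudins 7 rose and 3 fell in AKVPSL, of 25 keratins 4 rose and 13 fell (8 fell without AKVPL replicate 2), of 36 collagens 3 rose and 15 fell, and of 10 mucins 2 rose and 4 fell. Of 20 YAP targets 6 rose and 8 fell, and of 17 Notch pathway genes 4 rose and 5 fell (2 rose without AKVPL replicate 2 or AKVPSL replicate 3). Among 22 NF-kappa-B and chemokine genes 1 rose and 7 fell (4 fell without AKVPL replicate 2, AKVPL replicate 3 or AKVPSL replicate 1). Among 21 p53 targets 4 rose and 3 fell (7 rose without AKVPL replicate 3), and among 18 unfolded protein response genes 6 rose and 5 fell (1 or 2 fell without any 1 of AKVPL replicates 1 to 3 or AKVPSL replicates 3 and 4). Of 5 tested neural and glial genes 1 rose and 3 fell, at summed levels of 15.9 to 18 CPM in AKVPL and 7.71 to 10.4 CPM in AKVPSL. By edgeR 28.3% of all tested genes rose, 28.6% fell and 56.9% changed in either direction. The changed share of the collagen, Notch pathway, NF-kappa-B and chemokine, and p53 target lists was below that 56.9%. It was above it in the other lists given here. The splits of the Notch pathway (52.9% changed) and unfolded protein response lists (61.1%) are no different from all genes.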
